A study of Arabidopsis thaliana with 16 samples.

Results

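The first hour of light was followed in the dissected shoot apex of dark-grown Arabidopsis thaliana seedlings, by setting 2 arrays of apices harvested after 1 h of light against 2 arrays of apices harvested in the dark. These 4 arrays were all members of that comparison among the 16 Affymetrix ATH1 arrays of the series. One further array of apices after 2 h of light was used to see which differences were still there, and 4 cotyledon arrays (2 dark, 2 after 1 h) were used where the tissues were compared. The changes of the ribosome and the flavonoid pathway are left aside except where a gene stood among the largest changes.

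All groups were Landsberg erecta, an accession that carries the erecta mutation, with no transgene or added agent named in the labels. Stratified seeds on medium without sucrose received 30 min of white light at 100 µmol m-2 s-1 to start germination, and then 3 days of darkness at 21 °C. Cuts under the meristem and through the cotyledon bases freed the apex, which held the meristem, the youngest leaf primordia and nearby tissue. Each array pooled material from several plates and experiments, and replicates are separate samples of such pools. A pool held from about 1500 seedlings at 72 h of light to more than 4000 in the dark. Pool sizes at 1 h and 2 h are not given here. No seedlings kept in darkness for the extra hour were sampled, so light, age and time of day cannot be told apart. In pieces of tissue, a lower share of cells of one type cannot be told apart from less RNA per cell.

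When a seedling grown in darkness meets light, phytochromes and cryptochromes inactivate the PIF transcription factors and the COP1 ubiquitin ligase, and factors such as HY5 and HYH build up. The seedling then stops elongating its stem, opens its cotyledons and starts to make leaves. In darkness without sugar, Arabidopsis tissues are known to raise genes for starvation, for the breakdown of amino acids as fuel and for autophagy.

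The values were MAS5 signals, a linear measure of brightness for each probe set, scaled to nearly the same trimmed mean on every array. With no detection calls at hand, each array's 35th percentile, between 14.5 and 18.6 on the apex arrays used here, served as a floor. Differences were tested with limma on log2 signal, and a probe set is called when its adjusted p (Benjamini-Hochberg over 18237 probe sets) is under 0.05. Changes are log2 differences ± SE with n = 2 arrays per group. Where every array of the dimmer group lay at or below the floor, only a bound is given ("at least N-fold"). The dark replicates correlated at r = 0.897 over probe sets and the 1 h replicates at 0.924. Against arrays of other groups, dark replicate 2 correlated least on average (0.831) among these apex arrays. The 3'/5' GAPDH signal ratio, a sign of RNA integrity, was 0.899 and 1.78 in the dark and 0.832 and 1.85 after 1 h. The same ratio for actin was much higher, at 7.13 and 12.6 in the dark and 7.70 and 14.1 after 1 h. By both ratios each group held 1 array with a lower value and 1 with a higher one.

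The labelled tissue could be checked with few markers. Of 14 genes of the shoot meristem and its boundaries, 4 had a probe set with a single gene name. The boundary gene LAS and the YABBY gene YAB5 lay above the floor on all dark and 1 h apex arrays, while the stem cell peptide gene CLV3 and the floral regulator UFO lay at or below it. In the dark cotyledon LAS read 48.6 and 30.2 and YAB5 read 53.7 and 45.6. These overlapped the dark apex signals, so neither gene set the dark apex apart from the dark cotyledon. Isocitrate lyase ICL, which marks the use of stored lipid, was at 3667 to 4890 on the 4 apex arrays. On the 4 cotyledon arrays it was at 5078 to 10510. The adjusted p of every meristem, stomatal, trichome and storage marker tested was 0.126 or more.

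After 1 h of light, 1974 probe sets were called, 10.8% of those tested. Of these, 1038 were higher (5.69%) and 936 lower (5.13%), with medians of 1.45 and -1.57 among the called and -0.003 over all probe sets tested. The dark and the 1 h pair did not overlap for each of the 1974 called probe sets, as for 56.6% of all those tested. At least 2-fold changes numbered 886 higher and 858 lower, and at least 16-fold changes 51 and 40. These counts use fitted changes, which include signals under the floor. On 132 of the probe sets that rose both dark arrays were at or below the floor, and on 65 of those that fell both 1 h arrays were. The calls changed in number when 1 array was left out. They fell to 822 without dark replicate 2, to 1008 without 1 h replicate 1 and to 722 without 1 h replicate 2, and 539 probe sets (260 higher, 279 lower) were called whichever of the 4 arrays was left out. Among the 10265 genes with a single named probe set chosen for each, 999 were called (9.73%), 498 higher (4.85%) and 501 lower (4.88%), and these shares are the background for the gene groups below.

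**Figure D1:**
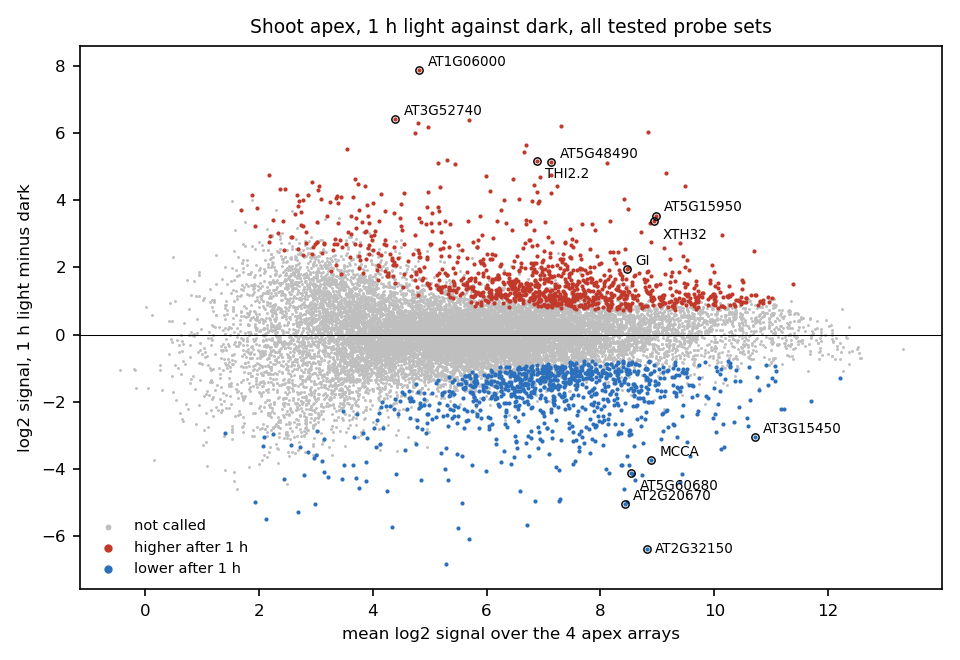
Each point is a tested probe set in the shoot apex, with the mean log2 signal of the 4 arrays on the horizontal axis and log2 signal after 1 h of light minus dark on the vertical axis; red points were called higher (1038), blue points lower (936), and grey points were not called. Large falls such as AT2G32150, AT2G20670 and MCCA lay at high signal, while AT1G06000 and AT3G52740 were at or below the floor on both dark arrays, so their plotted change is set by values under that floor.

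Genes that sugar starvation is known to raise were among the deepest falls. Members of this list and those below were chosen with earlier results of these data known, so the counts describe those genes only. Of 27 genes listed, 7 had a tested probe set with a single gene name and count as measured. The gene lists below likewise count only such genes. Of 7 such genes measured, 5 fell and 1 rose, with a list median of -3.11, and 4 or 5 fell in the fits without 1 array. AT2G32150, which encodes a haloacid dehalogenase-like hydrolase, read 3106 and 5382 on the dark arrays and 78.9 and 31.0 after 1 h, a change of -6.37 ± 0.80 (adjusted p = 0.00021). Its signal on the 2 h array was 63.4, so the groups lay far apart and the low level was still there an hour later. AT2G20670 went from 1772 and 2222 to 72.7 and 49.0, a change of -5.05 ± 0.50 (adjusted p = 2.91e-05), and read 69.0 at 2 h. The RING-type ubiquitin ligase gene ATL8 (AT1G76410) went from 286 and 236 to 15.6 on each 1 h array, 1 of which was at or below the floor, a change of -4.05 ± 0.43.

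The subunit gene AKINBETA1 (AT5G21170), which encodes a beta subunit of the SnRK1 energy-sensing kinase, read 1533 and 1628 in the dark, 200 and 168 after 1 h and 74.4 at 2 h. Its change at 1 h was -3.11 ± 0.39 (adjusted p = 0.000218). AT3G15450 read 3572 and 6521 in the dark, 514 and 651 after 1 h and 186 at 2 h, a change of -3.06 ± 0.62. Both signals were lower on the 2 h array than on either 1 h array. The call for AT3G15450 was lost without dark replicate 2 or 1 h replicate 1 (highest adjusted p = 0.0828). The member that rose, MSRB5 (AT4G04830), encodes a methionine sulfoxide reductase, an enzyme of protein repair, and went from 40.6 and 41.8 to 323 and 132 (2.33 ± 0.69, adjusted p = 0.0457). That call was lost whichever array was left out (highest adjusted p = 0.309). The last member, GAT1_2.1 (AT1G15040), a glutamine amidotransferase gene, was at or below the floor on all 4 arrays.

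Most measured genes for the breakdown of amino acids were called lower in the apex. Of 21 genes listed, 7 were measured and 5 of these were called lower (median -2.27). The others were ASPGB1 (-0.54, adjusted p = 0.474) and AT1G50110 (1.69, adjusted p = 0.0947), and AT1G50110 was called higher in the fit without dark replicate 2. On a longer list drawn up after these changes had been seen, 10 of 14 were lower (median -1.86, range -4.26 to 1.06), and between 7 and 10 of the 14 were lower when 1 array was left out. AT4G33150, which encodes the lysine-degrading enzyme lysine-ketoglutarate reductase/saccharopine dehydrogenase, went from 799 and 1497 to 63.8 and 73.1, a change of -4.0 ± 0.30 (adjusted p = 2.52e-06). It read 47.3 at 2 h. MCCA (AT1G03090), the biotin-carrying subunit of methylcrotonyl-CoA carboxylase in leucine breakdown, went from 1583 and 1907 to 155 and 109, a change of -3.74 ± 0.30 (adjusted p = 4.71e-06). On the 2 h array it read 27.9, and it was the sole named gene called both after 1 h and between 1 h and 2 h (-2.22 ± 0.37, adjusted p = 0.0361), although not in a fit on the apex arrays alone.

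The partner subunit MCCB (AT4G34030) went from 1616 and 2094 to 398 and 366 (-2.27 ± 0.35), and read 152 at 2 h. Isovaleryl-CoA dehydrogenase IVD (AT3G45300), which acts a step earlier in leucine breakdown, went from 790 and 997 to 106 and 122 (-2.97 ± 0.32), and read 46.1 at 2 h. ETFQO (AT2G43400), which passes electrons from such dehydrogenases to ubiquinone in mitochondria, went from 198 and 194 to 51.9 and 41.2 (-2.08 ± 0.37). The dark and 1 h signals of these 3 genes did not overlap, as for all 1974 called probe sets and 56.6% of those tested. On the single 2 h array each gene read lower again. AT5G36160, a tyrosine aminotransferase gene, was at least 3.74-fold lower, with both 1 h arrays at or below the floor (adjusted p = 0.000936). Its fitted change of -4.26, the low end of the longer list's range, was -1.90 with dim signals raised.

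The changes of single genes were also set against those in the cotyledon. Over all probe sets the change differed between the tissues for 186, or 1.02%, and for 88 of the named genes (0.857%). The apex change is part of this difference, so the share was higher among those already called in the apex, 8.16% of probe sets (12.1% of those lower) and 7.51% of named genes (11.2% of those lower). The difference was called for AT4G33150, MCCA, MCCB, IVD, ETFQO and AT5G36160, genes listed with their apex falls known, so their number is no result about the group. For MCCB, ETFQO and AT5G36160 it was lost in 5, 7 and 5 of the 8 fits without 1 array (highest adjusted p = 0.0801, 0.177 and 0.121). For MCCA the cotyledon arrays read 276 and 296 in the dark and 673 and 345 after 1 h, and the apex change was lower by -4.49 ± 0.42 (adjusted p = 0.000269). The difference was also called for the starvation genes AT2G32150, AT2G20670, ATL8 and AKINBETA1, and for AKINBETA1 it was lost in 7 of those 8 fits (highest adjusted p = 0.194). AT2G32150 read 49.6 and 136 in the dark cotyledon, so both dark apex signals lay above both dark cotyledon signals, while the 1 h apex signals overlapped their range. The number of such tissue differences was itself unsteady, between 64 and 283 when 1 of the 8 arrays was left out and 15 when variances were moderated without an intensity trend.

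**Figure D2:**
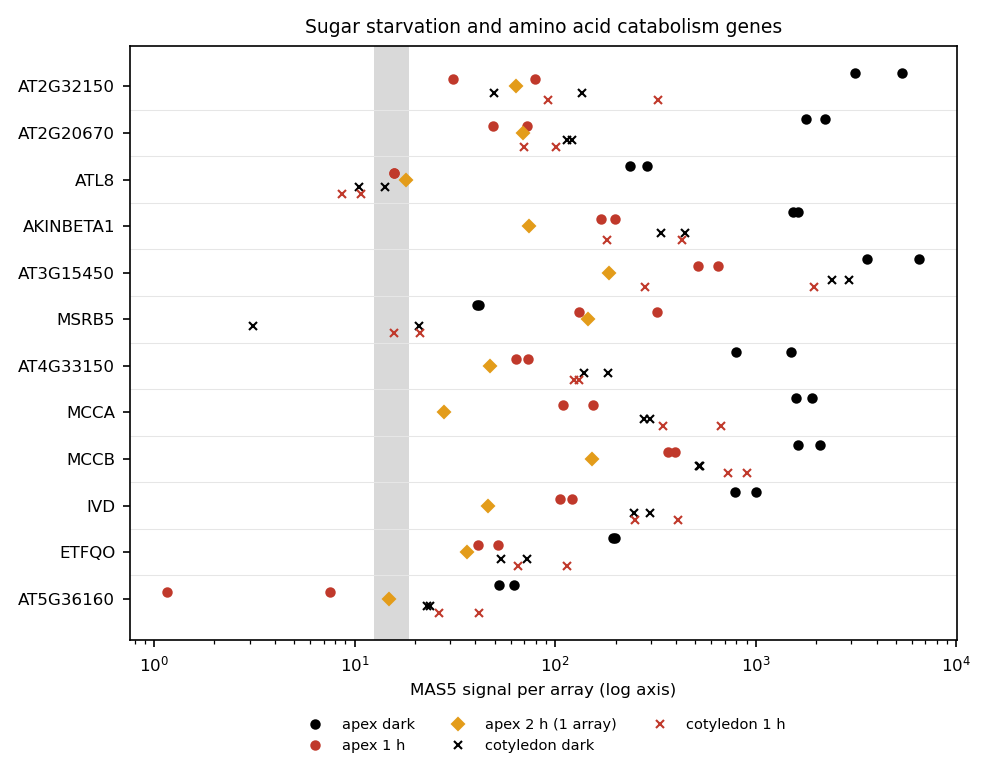
MAS5 signal on each array (log axis) for starvation genes (from AT2G32150 to MSRB5) and amino acid catabolism genes (from AT4G33150 to AT5G36160); filled circles are apex arrays (black dark, red 1 h), the diamond is the single 2 h apex array, crosses are cotyledon arrays (black dark, red 1 h), and the grey band spans the arrays' floors. All genes but MSRB5 had both dark apex signals to the right of both 1 h apex signals, as every called fall did. MCCA moved from 1583 and 1907 in the dark to 27.9 on the single 2 h array.

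Autophagy genes were also lower. On a list of 17 drawn up by locus after the changes had been seen, 7 fell, all 17 changes were below 0 and the median was -1.03. ATG8 proteins are ubiquitin-like proteins that are attached to the growing autophagosome membrane. ATG8H (AT3G06420) went from 140 and 123 to 41.5 and 29.8 (-1.90 ± 0.36, adjusted p = 0.00428) and read 41.4 at 2 h. ATG8C (AT1G62040) went from 225 and 316 to 94.4 and 91.0 (-1.52 ± 0.30, adjusted p = 0.00469) and read 74.6 at 2 h. The call for ATG8H was lost without 1 h replicate 2 (adjusted p = 0.0632) and that for ATG8C without dark replicate 2 (adjusted p = 0.0675). Between 4 and 5 of the 17 genes were called lower when an array was left out, and 6 of the 7 falls were still there at 2 h.

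Genes of light signalling rose among the few that were measured, 6 of 50 listed. Of 6 measured genes, 5 were called higher, with a median of 2.55, and all 5 were higher on the 2 h array too; 4 or 5 were called when an array was left out. AFR (AT2G24540), an F-box protein gene that acts in phytochrome A signalling, went from 15.4 and 50.3 to 377 and 517, a change of 3.99 ± 0.44 (adjusted p = 6.49e-05). HYH (AT3G17609), the homologue of the bZIP factor HY5, went from 17.5 and 37.8 to 189 and 185 (2.86 ± 0.36). The clock gene GI (AT1G22770) went from 200 and 164 to 766 and 634 (1.94 ± 0.23). On the 2 h array HYH read 275 and GI 366, so HYH was above both 1 h arrays and GI below both, although neither step was called.

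The cryptochrome inhibitor gene AT3G52740 was at or below the floor on both dark arrays and read 175 and 215 after 1 h, at least 11.8-fold higher (adjusted p = 8.51e-07). A second gene of that kind, AT3G44450, went from 8.30 and 24.7 to 43.8 and 103, with 1 dark array at or below the floor (2.23 ± 0.62, adjusted p = 0.0343, and 1.83 with dim signals raised to the floor). Its call was lost without dark replicate 1 (change 1.45) or without 1 h replicate 2 (highest adjusted p = 0.315), and the change ran up to 3.02 over the fits without 1 array. The member that was not called, AT5G17190, changed by 0.76 ± 0.27 (adjusted p = 0.0993). In the cotyledon, where 2.19% of probe sets and 1.68% of named genes were called, 5 of the 6 were higher as well (median 2.81) and the adjusted p of the tissue difference was 0.515 or more for each of the 6.

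Targets of the PIF factors, which are high in darkness and shade, moved the other way where measured, which was 5 of 25 listed. Of 5 measured, 4 fell (median -2.12) and all 4 were still low at 2 h. IAA29 (AT4G32280), an early auxin-response repressor gene, went from 333 and 268 to 39.9 and 34.7, a change of -3.01 ± 0.51 (adjusted p = 0.0019). HAT2 (AT5G47370), a homeodomain-leucine zipper gene induced by auxin and shade, went from 658 and 476 to 116 and 144 (-2.12 ± 0.36) and read 86.5 at 2 h. AT4G25260, which encodes an inhibitor of the invertase and pectin methylesterase type, went from 711 and 596 to 228 on each 1 h array (-1.51 ± 0.34), a call lost whichever array was left out (highest adjusted p = 0.0836). AT5G02580 went from 259 and 285 to values at or below the floor, at least 17.8-fold lower (adjusted p = 0.00419). FHL (AT5G02200), which helps phytochrome A enter the nucleus, changed by -0.98 ± 1.00 and was not called. Over the fits without 1 array 3 of the 5 fell.

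Some families moved in both directions. CC-type glutaredoxins are small plant redox proteins, several of which bind TGA transcription factors, and of 17 measured genes 6 rose and 2 fell. AT5G18600 went from 682 and 575 to 38.8 and 37.8, a change of -4.03 ± 0.34 (adjusted p = 6.4e-06), and read 22.8 at 2 h. AT4G15660 was at or below the floor in the dark and read 51.0 and 36.5 after 1 h, at least 2.63-fold higher (adjusted p = 1.36e-05), and 93.1 at 2 h. AT4G15680 went from 18.9 and 24.1 to 78.4 and 67.8 (1.77 ± 0.36) and read 151 at 2 h. AT4G33040 went from 52.1 and 33.4 to 151 and 146 (1.83 ± 0.34). AT3G62960 was at least 2.00-fold higher and AT3G62950 at least 1.91-fold lower. This list was drawn up after the changes had been seen. Without 1 array, 2 to 5 of its genes were called higher and 1 lower. AT4G15680 lost its call without 1 h replicate 1 (adjusted p = 0.0548), AT4G33040 without dark replicate 2 (0.0505), AT3G62960 in every such fit but that without dark replicate 1 (highest adjusted p = 0.112) and AT3G62950 whichever array was left out (highest adjusted p = 0.114).

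The tissue difference was called for AT5G18600 and AT4G33040 among these glutaredoxins. For AT5G18600 the cotyledon arrays read 266 and 242 in the dark and 349 and 241 after 1 h, and the apex change was lower by -4.23 (SE 0.48, adjusted p = 0.00065). AT4G33040 read 30.4 and 38.9 in the dark cotyledon and 20.1 and 25.6 after 1 h, and the apex change was higher by 2.44 ± 0.49 (adjusted p = 0.029). This difference for AT4G33040 was lost in 6 of 8 fits without 1 array (highest adjusted p = 0.148), without the intensity trend (0.097) and after median centring (0.0552). AT4G15660 and AT4G15680 were called higher in the cotyledon as well, and their tissue differences were not called (adjusted p = 0.543 and 0.434).

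Among 12 MYB-related genes of the SHAQKYF type, also listed after the changes had been seen, 3 rose and 3 fell. AT1G70000 went from 51.7 and 20.8 to 652 and 563, a change of 4.21 ± 0.44 (adjusted p = 4.51e-05). AT5G58900 went from 94.7 and 68.0 to 357 and 433 (2.29 ± 0.26, adjusted p = 9.52e-05). Its change was above that in the cotyledon by 1.87 ± 0.37 (adjusted p = 0.0286), a call lost in 7 of 8 fits without 1 array (highest adjusted p = 0.177), without the intensity trend (0.14) and after median centring (0.118). AT3G16350 was at least 4.10-fold higher. On the 2 h array AT1G70000 read 357 and AT5G58900 246, each below both 1 h arrays and more than 2-fold above the dark pair.

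AT5G08520 went from 444 and 350 to 170 and 167 (-1.23 ± 0.23, adjusted p = 0.00419). AT1G74840 went from 663 and 760 to 298 and 282 (-1.29 ± 0.25). AT5G47390, annotated as KUA1 or MYBH and known in hypocotyl and leaf cell expansion, went from 553 and 637 to 265 and 268 (-1.16 ± 0.29). All 3 stayed low at 2 h (121, 262 and 259). The call for AT1G74840 was lost without dark replicate 2 (adjusted p = 0.052) and that for AT5G47390 whichever array was left out (highest adjusted p = 0.147).

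**Figure D3:**
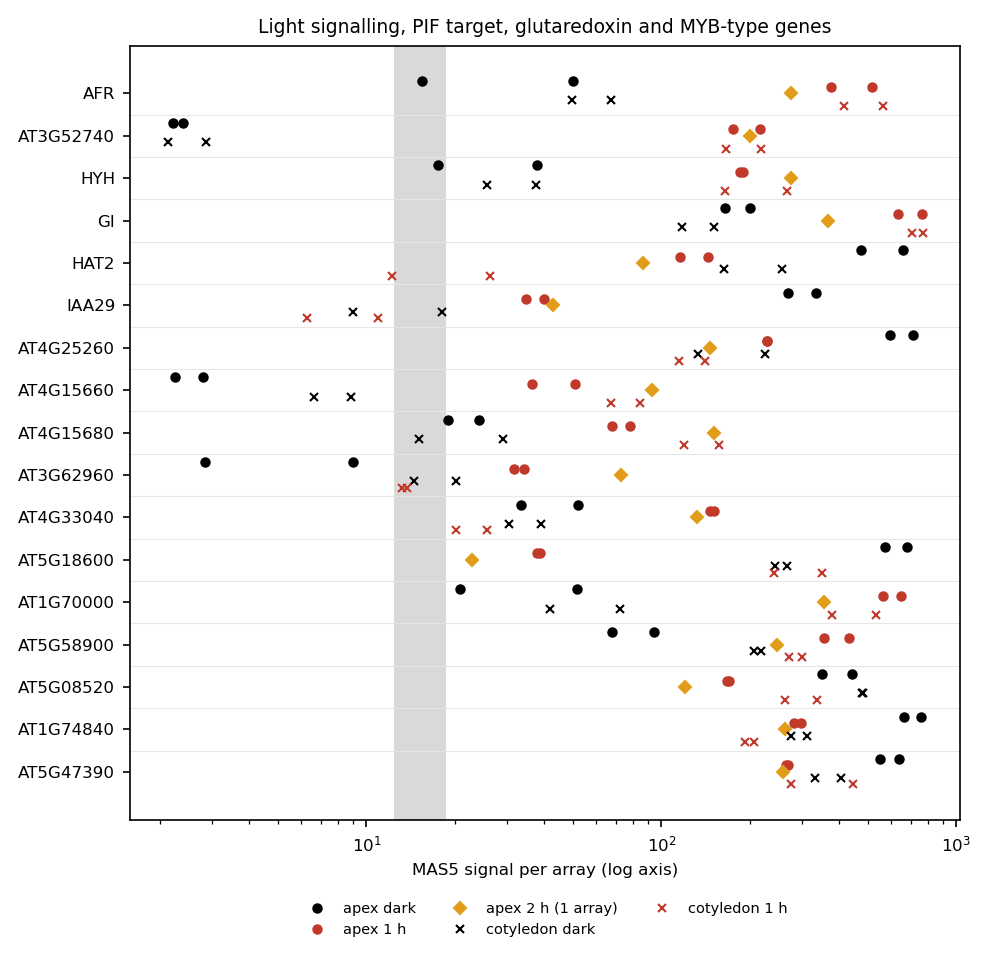
MAS5 signal on each array (log axis) for light signalling genes (AFR to GI), PIF targets (HAT2 to AT4G25260), CC-type glutaredoxins (AT4G15660 to AT5G18600) and MYB genes (AT1G70000 to AT5G47390); filled circles are apex arrays (black dark, red 1 h), the diamond is the single 2 h array, crosses are cotyledon arrays and the grey band spans the floors. AT5G18600 lay at 682 and 575 in the dark apex and at 38.8 and 37.8 after 1 h, while its cotyledon signals overlapped between dark and light.

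Cell wall genes also split. Of 22 expansin and xyloglucan endotransglucosylase/hydrolase (XTH) genes, which loosen or remodel the wall of growing cells, 3 rose and 4 fell (median -0.51). XTH32 (AT2G36870) went from 151 and 152 to 1572 and 1607, a change of 3.39 ± 0.28 (adjusted p = 5.44e-06), and read 2121 at 2 h. The cotyledon arrays read 219 and 297 in the dark and 406 and 538 after 1 h, and the apex rise was larger by 2.52 ± 0.39 (adjusted p = 0.00679). EXPA8 (AT2G40610) went from 545 and 406 to 38.9 and 40.7 (-3.56 ± 0.66, adjusted p = 0.00368), and read 93.5 at 2 h. XTH16 (AT3G23730) went from 353 and 376 to 764 and 863 (1.16 ± 0.23), EXPA15 (AT2G03090) changed by 1.35 ± 0.39, and the expansin-like gene EXLA1 (AT3G45970) went from 247 and 269 to 28.1 and 36.1 (-3.02 ± 0.77). The call for XTH16 was lost without 1 h replicate 2 (adjusted p = 0.0628) and those for EXPA15 and EXLA1 whichever array was left out (highest adjusted p = 0.251 and 0.133), and 1 to 4 genes were called higher and 1 lower in those fits.

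Of 20 genes of mitosis and the kinetochore, on a list drawn up after the changes had been seen, 8 rose (median 1.32) and all 8 were higher at 2 h. Their signals were low, with 6 of the 20 at or below the floor on both dark arrays. BUB3.2 (AT1G49910), related to a spindle checkpoint protein, was at or below the floor in the dark and read 33.0 and 45.3 after 1 h, at least 2.36-fold higher (adjusted p = 0.000234). AT3G54630, which encodes the kinetochore protein NDC80, was at least 2.56-fold higher (1.36 with dim signals raised). Its larger fitted changes rest on dark signals at or below the floor. AUR2 (AT2G25880), for an Aurora kinase of dividing cells, went from 21.3 and 40.1 to 89.0 and 95.0 (1.65 ± 0.41, adjusted p = 0.0192), and read 121 at 2 h. The kinesin gene AT5G60930 went from 15.4 and 3.63, the latter below the floor, to 49.7 and 44.9 (2.66 ± 0.65, and 1.48 with dim signals raised). BUB3.2 alone of the 8 was called in every fit without 1 array, and 5, 2, 1 and 1 genes were called without dark replicate 1, dark replicate 2, 1 h replicate 1 and 1 h replicate 2. The calls for AT3G54630, AT5G60930 and AUR2 were lost without either 1 h array, the first 2 also without dark replicate 2 and AUR2 also without dark replicate 1 (highest adjusted p = 0.157, 0.186 and 0.152, with changes down to 1.69, 1.62 and 1.20).

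Small heat shock and J-domain proteins keep other proteins from aggregating. Of 12 such genes, listed after the changes had been seen, 5 rose (median 1.19) and all 5 were higher at 2 h. AT4G21870 went from 240 and 276 to 703 and 1058 (1.74 ± 0.27, adjusted p = 0.00114), and AT1G54050 went from 31.2 and 14.6 to 83.1 and 86.3 (1.99 ± 0.38, 1.81 with dim signals raised). The J-protein gene AT3G14200 was at least 7.81-fold higher, the mitochondrial small heat shock gene AT5G51440 at least 2.74-fold and the J-protein gene AT2G20560 at least 1.44-fold. Between 3 and 4 genes were called when an array was left out, and the calls were lost for AT1G54050 without dark replicate 2, for AT5G51440 without either 1 h array and for AT2G20560 whichever array was left out (highest adjusted p = 0.0591, 0.0863 and 0.146). For AT5G51440 the fitted change ran from 2.04 to 6.13 over those fits, but it rests on dark signals at or below the floor. On all arrays with dim signals raised it was 1.46.

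Of 3 plastid chaperonin genes, listed after the changes had been seen, 2 rose. Cpn60beta2 (AT3G13470), a subunit of the complex that folds proteins in the chloroplast, went from 68.9 and 95.4 to 418 and 373 (2.29 ± 0.34, adjusted p = 0.000829), and read 1039 at 2 h. In the cotyledon its 4 signals lay between 562 and 776, and the tissue difference was not called (adjusted p = 0.0565). Cpn60beta3 (AT5G56500) went from 23.1 and 20.7 to 56.2 and 60.4 (1.41 ± 0.36), a call lost whichever array was left out (highest adjusted p = 0.154). LHCB4.3 (AT2G40100), an antenna protein of photosystem II, went from 38.8 and 55.7 to 214 and 190 (2.12 ± 0.41) and read 332 at 2 h. CHLI2 (AT5G45930), a magnesium chelatase subunit in chlorophyll synthesis, went from 115 and 72.1 to 259 and 237 (1.45 ± 0.27), a call lost without dark replicate 2 (adjusted p = 0.0603).

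Redox enzymes named in the annotation numbered 19, of which 4 rose and 1 fell (median 0.53). The methionine sulfoxide reductase gene MSRB6 (AT4G04840) was at or below the floor in the dark, read 46.4 and 48.5 after 1 h (at least 2.89-fold higher) and 661 at 2 h. PRXIIF (AT3G06050), a mitochondrial peroxiredoxin gene, went from 246 and 154 to 318 and 485 (1.01 ± 0.28) and was back within 2-fold of the dark pair at 2 h (293). CCS (AT1G12520), the copper chaperone of superoxide dismutase, went from 306 and 253 to 132 and 81.5 (-1.42 ± 0.42). The calls were lost for MSRB6 without dark replicate 1 or either 1 h array, for PRXIIF without either replicate 2 and for CCS whichever array was left out (highest adjusted p = 0.116, 0.311 and 0.331). By limma 0 of the 19 were called in all 4 of those fits, against 10 with an unadjusted p under 0.05 on all arrays. The fitted change of PRXIIF ran from 0.68 to 1.35 over these fits. That of MSRB6 ran from 2.00 to 4.15, but it rests on dark signals at or below the floor. On all arrays with dim signals raised it was 1.53.

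**Figure D4:**
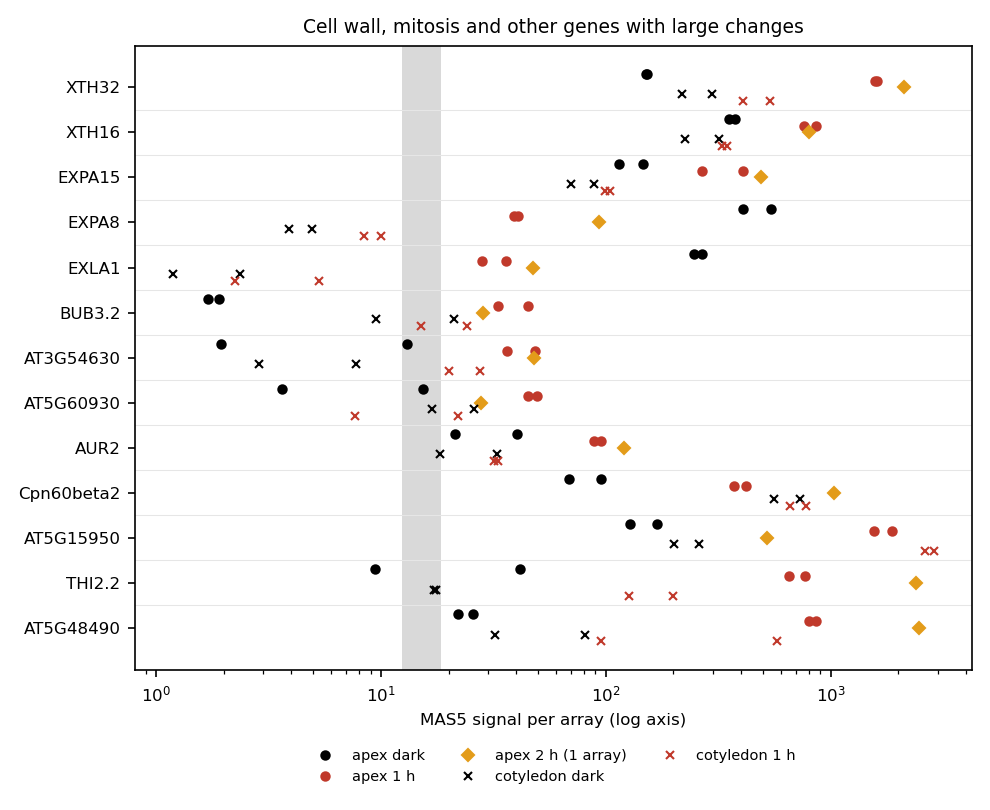
MAS5 signal on each array (log axis) for cell wall genes (XTH32 to EXLA1), mitosis genes (BUB3.2 to AUR2), Cpn60beta2, AT5G15950, THI2.2 and AT5G48490; filled circles are apex arrays (black dark, red 1 h), the diamond is the single 2 h array, crosses are cotyledon arrays and the grey band spans the floors. XTH32 rose from 151 and 152 to 1572 and 1607 in the apex. AT5G15950 read 1567 and 1876 at 1 h and 520 on the single 2 h array, a step that was not called.

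Response regulators of the A type damp cytokinin signalling. Of 10 listed after the changes had been seen, 2 were measured, RR16 (AT2G40670) and ARR15 (AT1G74890). Both were called higher, which is no result about the family. Both were at or below the floor in the dark and read 25.4 and 21.9, and 23.6 and 19.7, after 1 h, so the bounds were at least 1.44-fold and at least 1.31-fold. RR16 read 61.1 at 2 h, and ARR15, whose call was lost whichever array was left out (highest adjusted p = 0.185), read 23.4. AT5G15950, which encodes an S-adenosylmethionine decarboxylase of polyamine synthesis, went from 129 and 170 to 1567 and 1876, a change of 3.54 ± 0.27 (adjusted p = 3e-06). On the single 2 h array it read 520, and this step from 1 h was not called. Its paralogue SAMDC (AT3G02470) read 3598 and 3882 in the dark and 3219 and 3423 after 1 h (-0.17 ± 0.27, adjusted p = 0.771 by limma). In the cotyledon AT5G15950 went from 200 and 259 to 2882 and 2642, and its change did not differ between the tissues by the test (-0.06 ± 0.38, adjusted p = 0.964).

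COR27 (AT5G42900), a cold- and clock-regulated gene, went from 295 and 340 to 32.5 and 19.4 (-3.66 ± 0.48, adjusted p = 0.000282) and was below the floor at 2 h. WRKY22 (AT4G01250), a defence transcription factor, went from 216 and 160 to 34.0 and 35.6 (-2.42 ± 0.36, adjusted p = 0.000793). The basic helix-loop-helix gene bHLH121 (AT3G19860), known from the iron deficiency response, went from 259 and 173 to 39 and 15.2 (-3.12 ± 0.60), while bHLH34 (AT3G23210) of the same response went from 57.9 and 40.9 to 136 and 150 (1.55 ± 0.30). EIN3 (AT3G20770), the central transcription factor of ethylene signalling, went from 1080 and 707 to 517 and 375 (-0.99 ± 0.27). Of 26 ethylene genes listed, 3 were measured, and EIN3 was the 1 that was called. SWEET2 (AT3G14770), a sugar transporter of the vacuole, went from 47.1 and 37.3 to 265 and 139 (2.2 ± 0.59). The calls were lost for bHLH121 without 1 h replicate 2, for bHLH34 without either replicate 2, for EIN3 without dark replicate 1 or 1 h replicate 2, and for SWEET2 whichever array was left out (highest adjusted p = 0.0761, 0.0627, 0.278 and 0.205).

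Several short lists held few or no called genes. Over all named genes 9.73% were called, and lists this short cannot tell such counts from that share. Apart from that of cytochrome P450, these lists were drawn up after the changes had been seen. Among 12 cytosolic tRNA synthetases 0 were called by limma (2 at an unadjusted p under 0.05), with changes between -0.56 and 0.68. Among 8 subunits of the cytosolic CCT chaperonin 0 were called (3 unadjusted), although all 8 changes were above 0 (median 0.39). Of 14 cytochrome P450 genes 0 were called (1 unadjusted). Of 16 translation factor genes 1 rose, the elongation factor 1B subunit gene AT5G12110, at least 4.57-fold from signals at or below the floor, and it read 211 at 2 h. Of 5 nucleotide synthesis genes 1 rose, the inosine monophosphate dehydrogenase gene AT1G16350, from 138 and 83.3 to 258 and 308 (1.39 ± 0.29), a call lost without either replicate 2 (highest adjusted p = 0.103).

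The 15 largest rises and 15 largest falls among named genes included several outside these groups. On the rising side AT1G06000, a flavonol rhamnosyltransferase gene, was at least 26.3-fold higher (adjusted p = 2.02e-09), and CYTC-2 (AT4G10040), for the electron carrier cytochrome c, went from signals at or below the floor to 303 and 350, at least 19.8-fold. THI2.2 (AT5G36910), for a thionin, a small antimicrobial peptide, went from 9.40 and 41.6 to 653 and 769 (5.16 ± 0.48, 4.85 with dim signals raised), and read 2387 at 2 h. AT5G48490, which encodes a lipid-transfer type protein, went from 25.7 and 21.9 to 866 and 806 (5.14 ± 0.63) and read 2478 at 2 h. The 2 h signals of THI2.2 and AT5G48490 were above both of their 1 h signals. UGT78D2 (AT5G17050), a flavonoid glucosyltransferase gene, rose by 4.69 ± 0.35 and AT5G64850 by 4.63 ± 0.42 (4.20 with dim signals raised). AT1G48660, of the GH3 family of hormone-conjugating enzymes, was at least 3.85-fold higher and read 105 at 2 h.

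The other largest rises were less firm. AT3G56260 was at least 3.90-fold higher, UGT84A1 (AT4G15480), a hydroxycinnamate glucosyltransferase gene, at least 1.5-fold, and AT1G60590, of the pectin lyase-like type, at least 2.23-fold. The pyruvate decarboxylase gene PDC2 (AT5G54960) went from 21.8 and 2.40 to 164 and 115 (4.25 ± 1.09, 2.77 with dim signals raised). The calls were lost for AT3G56260 and UGT84A1 whichever array was left out, for AT1G60590 without 1 h replicate 1 and for PDC2 in every fit but that without dark replicate 1 (highest adjusted p = 0.098, 0.208, 0.0523 and 0.258), and the change of PDC2 ran from 2.65 to 5.84. AT1G60590 read 297 at 2 h, while UGT84A1 was below the floor there. On both dark arrays 10 of the 15 were at or below the floor, so their order by fitted change carries little meaning.

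On the falling side AT3G20340 went from 353 and 312 to values at or below the floor, at least 21.7-fold lower (adjusted p = 0.00227). AT1G19530 went from 637 and 1153 to 25.1 and 32.8 (-4.90 ± 0.87), and was below the floor at 2 h. SIS (AT5G02020), annotated as a salt-induced serine-rich protein, went from 1579 and 1781 to 85.2 and 55.7 (-4.61 ± 0.57), and the linker histone gene HIS1-3 (AT2G18050), which water stress is known to raise, was at least 8.43-fold lower. AT3G45730, AT1G49210 and AT5G18710 were at least 2.62-fold, 2.66-fold and 1.92-fold lower, and the calls were lost whichever array was left out, except that AT1G49210 kept its call without 1 h replicate 2 (highest adjusted p = 0.235, 0.263 and 0.139).

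Other falls belong to the S40 family, whose founding member in barley marks leaf senescence. Of 9 members measured, listed after the changes had been seen, 3 fell. AT5G60680 went from 1582 and 1529 to 63.1 and 127 (-4.12 ± 0.48, adjusted p = 0.000108) and read 97.2 at 2 h. It fell in the cotyledon as well, from 1486 and 1125 to 173 and 63.8. AT2G28400 was at least 2.40-fold lower after 1 h (adjusted p = 0.0014) and read 27.8 at 2 h against 35 and 38.3 in the dark, so it was back within 2-fold of the dark pair. AT4G04630 was at least 3.93-fold lower, a call lost whichever array was left out (highest adjusted p = 0.206).

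The 2 h array answered how much of the first hour's change was still present. A change counted as present when the 2 h signal lay at least 2-fold from the geometric mean of the dark pair, in the direction of the 1 h change, and outside both dark arrays. By this measure 1637 of the 1974 called probe sets (82.9%) were still changed, 853 of the 1038 that rose (82.2%) and 784 of the 936 that fell (83.8%), while 334 were within 2-fold of the dark pair. The same measure held for 28.1% of all tested probe sets and for 21.5% of those not called. The dark arrays enter both the 1 h and the 2 h difference, so these shares are a description. With dim signals raised to the floor the number was 1566 (79.3%), and 14 of the rises counted as present had a 2 h signal at or below the floor. Of the 30 genes with the largest changes, 29 met the measure on the signals as deposited and 25 with dim signals raised. AT2G28400 was within 2-fold either way. UGT84A1, at or below the floor in the dark and at 2 h, has no measured change at 2 h. AT3G62950, AT5G18710 and BUB3.2 were within 2-fold once dim signals were raised.

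The second hour moved signals both ways. Among the 1038 rises the 2 h signal was above both 1 h arrays for 479 and below both for 276, and among the 936 falls it was below both for 417 and above both for 302. With a single 2 h array, assumed to vary like the replicated groups, few of these steps passed the test. Between 1 h and 2 h 17 probe sets were called by limma (0.0932%), 8 higher and 9 lower, with 1052 at an unadjusted p under 0.05; a fit on the apex arrays alone called 0. Of the 17, 7 had also been called after 1 h, and all 7 went further in the same direction. The named genes among the rest were AT1G72410, AT5G26200, AT4G38540 and AT5G14080, all lower at 2 h with signals at or below the floor there, and AT4G23680, which read 198 and 152 after 1 h and 828 at 2 h.

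**Figure D5:**
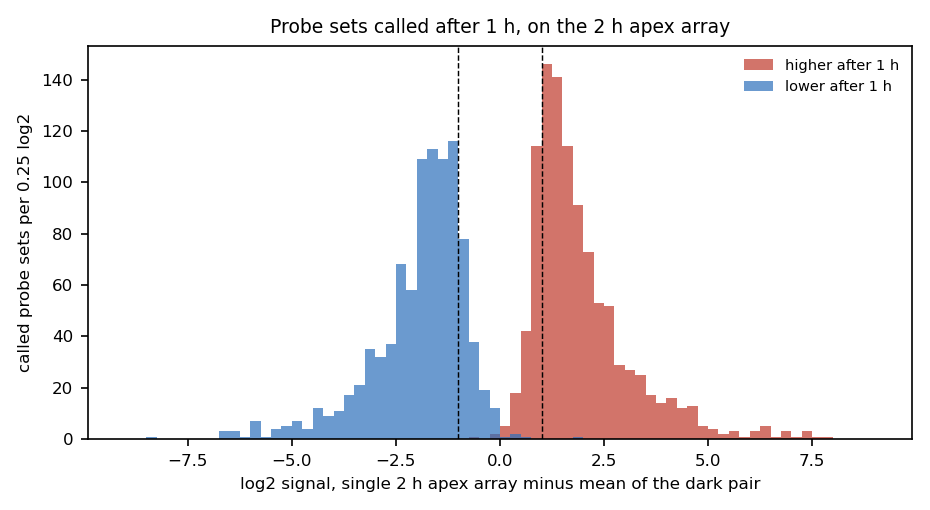
Histogram of log2 signal on the single 2 h apex array minus the mean log2 signal of the dark pair, for probe sets called higher (red, 1038) or lower (blue, 936) after 1 h, in bins of 0.25; dashed lines mark 2-fold. Most of the red probe sets (853) and blue probe sets (784) lay beyond the line on their own side and outside both dark arrays, and both differences share the dark arrays.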

How the data were processed

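Transcript signals were measured on 16 Affymetrix ATH1 arrays. The authors deposited linear MAS5 signal intensities, which the submitters' processing notes credit to GCOS and MAS5 with no version; image processing beyond this is not given in the sources used here. The intensities were log2-transformed without a pseudocount or further scaling. Probe sets above their array's 35th percentile on at least 2 arrays were kept (18237 of 22746 that were not controls), of which 10382 matched 1 gene, 360 several and 7495 none in the platform annotation. Symbols were updated from TAIR10.1. Roles and family membership of genes known by locus code alone come from general knowledge, not from that annotation. No sequences are printed.

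A linear model with 10 group means was fitted to all 16 arrays in limma 3.58.1 (R 4.3.3; 6 residual and 7.618 prior degrees of freedom, intensity trend), with Benjamini-Hochberg adjustment. With 2 against 2 arrays an exact permutation test cannot go below p = 0.333. The number of arrays limits precision (median SE 0.42). Replicate differences over probe sets were nearly uncorrelated between the dark and 1 h pairs (r = 0.005), so no block was used. In both groups replicate 2 had the higher 3'/5' ratios of GAPDH and actin.

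The text names the 15 largest rises and falls among called genes changed the same way in all 4 pairings, up to 5 members per list with the smallest adjusted p, and uncalled members, with the brightest probe set standing for a gene. Members and lists were chosen with earlier results of these data known, and the lists stated to be drawn up after the changes were seen, with those for chaperonins, tRNA synthetases, translation factors, nucleotides, polyamines, response regulators and COR27, followed this fit's calls; the lists describe and support nothing further. The settings varied were the normalization, the filter, the pseudocount, the floor, the variance prior, the arrays fitted and each array left out.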

Additional observations from a re-analysis of the deposited data

Results flagged for a closer look

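For 19 of the genes named, the change after 1 h differed between apex and cotyledon by the limma test of the difference itself, 12 with a lower and 7 with a higher apex change. Over all probe sets the share was 1.02%, among named genes 0.857% and among named genes called in the apex 7.51% (75 of 999). Most of the genes named were chosen for their apex changes, which are part of the difference, so the number of them is no result. The differences, as apex minus cotyledon log2 change, were -7.44 for AT2G32150, -4.57 for AT2G20670, -3.71 for ATL8 and -2.63 for AKINBETA1 among starvation genes. Among amino acid catabolism genes they were -4.49 for MCCA, -3.68 for AT4G33150, -3.2 for IVD, -2.9 for MCCB and -2.56 for ETFQO. AT5G36160, with both 1 h apex signals at or below the floor, differed by -4.76 on the fitted scale and by -2.4 with dim signals raised (adjusted p = 0.0179). The differences were -4.23 for the glutaredoxin gene AT5G18600 and -4.62 for the expansin gene EXPA8, whose 4 cotyledon signals (3.91 to 10.0) all lay below the floor. On the other side they were 4.17 for AT1G06000, 4.81 for AT1G48660, 3.99 for BUB3.2, 2.91 for CYTC-2, 2.52 for XTH32, 2.44 for AT4G33040 and 1.87 for AT5G58900.

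Of the 19 differences, 10 (AT1G06000, AT2G20670, AT2G32150, AT4G33150, AT5G18600, ATL8, CYTC-2, IVD, MCCA and XTH32) were called in all 8 fits without 1 array, 15 with dim signals raised to the floor, 19 after quantile normalization and 17 after median centring. Without the intensity trend 3 were called (AT1G06000, AT4G33150 and MCCA). AT1G06000, BUB3.2, AT1G48660 and EXPA8 were not called with dim signals raised (adjusted p = 0.239, 0.301, 0.0516 and 0.0746), and their differences there were 1.02, 1.22, 2.27 and -3.25. AT4G33040 and AT5G58900 were not called after median centring (adjusted p = 0.0552 and 0.118).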

How the results depend on the processing

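The count of 1974 called in the apex stayed within 1.5 times under quantile normalization, median centring, no filter, a 50th percentile filter, a pseudocount of 16, dim signals raised to the floor, apex arrays alone, the 4 arrays alone and the replicate block. The share of higher calls, 52.6%, was 59.0% after median centring, 46.9% with dim signals raised, 47.6% with the pseudocount and 48.0% on the 4 arrays alone. The fit on the 4 arrays alone gave 1417 lower. Without the intensity trend the count was 1016 (488 higher, 528 lower), with 15 tissue differences, 6 called between 1 h and 2 h and 918 still present at 2 h. Tissue differences, 186 in all, rose to 286 with the pseudocount and 285 after quantile normalization. The 17 calls between 1 h and 2 h became 0 on apex arrays alone by limma, 32 with dim signals raised and 57 with the pseudocount. Leaving out 1 array at a time gave between 722 (without apex 1 h replicate 2) and 1339 (without apex dark replicate 1) called, 340 to 800 higher and 382 to 539 lower. It gave 64 to 283 tissue differences, 3 to 14 calls between 1 h and 2 h and 681 to 1260 still present at 2 h. The cause of these shifts was not tested; fits without an array have fewer samples. With the replicate number as a block 1862 were called. Over 92 named genes and all settings, 1118 values kept direction and side of the threshold, 164 lost the call and 1 turned: the uncalled GAT1_2.1 ran from -0.739 to 0.068 without 1 dark array. The number of arrays limits all counts, and signals near the floor have no order.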

Other observations

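Some unreplicated steps on the 2 h array were large without passing the test: MSRB6 went from 46.4 and 48.5 after 1 h to 661, AT1G60590 from 55.1 and 24.2 to 297, and AT5G12110 from 76.3 and 73.6 to 211. On the falling side COR27 went from 32.5 and 19.4 to 5.59 and AT1G19530 from 25.1 and 32.8 to 1.37, both below that array's floor. Each of these genes had moved the same way in the first hour.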
